A study of Mus musculus with 5 samples.

Results

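Keratins are the intermediate filament proteins of epithelial cells. In liver tumours of mice lacking Hdac3 in hepatocytes and in control livers, 7 of their genes are described here. The genes are Krt7, Krt8, Krt18, Krt19, Krt20, Krt23 and Krt80. They are 7 of 52 measured keratin genes and of 19938 measured genes in all. The 7 genes were chosen from measured tumour and control values of these same 5 arrays, so their values are a description and carry no test. Each had exactly 1 probe set that names it alone. Levels are log2 values after robust multi-array averaging (RMA), so a difference of 1 is a doubling, and levels of different probe sets cannot be set against each other.

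All mice were males of about 10 months on regular food and carried AlbCre, a Cre recombinase driven by the albumin promoter, which acts in hepatocytes. The 2 control livers were normal tissue of genotype Hdac3FL/+; AlbCre+, in which hepatocytes can retain only their wild-type Hdac3 allele. The 3 tumours came from Hdac3FL/-; AlbCre+ mice, whose hepatocytes have no intact allele left after recombination. Whether other cells, bile duct cells among them, retain the floxed allele was not measured here. Every tumour was Hdac3-null and every control was normal tissue, so genotype and tumour cannot be told apart. The labels name the arrays of a group biological replicates, and their number limits the precision. Array medians lay between 5.66 and 5.77. Hdac3, which encodes a histone deacetylase of nuclear corepressor complexes, measured 8.21 and 8.37 in control livers, against 6.78, 6.57 and 6.65 in the tumours in the order 1 to 3 (limma adjusted p = 0.00298, or 0.0505 without control 1 and 0.0663 without control 2). Tumour 3 differed from the others in part: it was the highest tumour for 46.6% of genes, against 27.4% for tumour 1 and 26.1% for tumour 2. The differences of Krt19, Krt20 and Krt23 are therefore also given without it.

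A keratin filament is built from pairs of a type I and a type II protein, so that each needs a partner of the other type. Adult hepatocytes normally make only the simple-epithelial pair Krt8 (type II) and Krt18 (type I), whereas bile duct cells also make Krt7 (type II) and Krt19 (type I). Keratins protect liver cells from mechanical and toxic stress, and the Krt8 and Krt18 proteins collect in the Mallory-Denk bodies of injured hepatocytes. Krt20 is best known from intestinal epithelium and Krt23 and Krt80 from other epithelia, so the name of hepatocyte and biliary keratins covers Krt8, Krt18, Krt7 and Krt19 more closely than the rest. In the mouse the type I genes lie together on chromosome 11 and the type II genes on chromosome 15, where Krt18 is the only type I gene, next to Krt8.

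Promoter sequences are shown for the keratins that the results turn on: the Krt8 and Krt18 pair, whose values were alike in all 3 tumours, and the neighbours Krt20 and Krt23, which were high in tumour 3. Each sequence runs 5′ to 3′ on the strand of its gene, from 120 bases before the annotated start of the gene to 20 bases after it, from RefSeq on GRCm38.p6. Their positions are chr15:102004323-102004462 (minus strand), chr15:102028096-102028235 (plus strand), chr11:99438134-99438273 (minus strand) and chr11:99493101-99493240 (minus strand). Capitals mark matches to TATAAA, the core of a TATA box, on either strand.
Krt8: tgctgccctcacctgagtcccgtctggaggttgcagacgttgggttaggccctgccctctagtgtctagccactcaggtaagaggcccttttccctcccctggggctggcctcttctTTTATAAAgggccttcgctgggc
Krt18: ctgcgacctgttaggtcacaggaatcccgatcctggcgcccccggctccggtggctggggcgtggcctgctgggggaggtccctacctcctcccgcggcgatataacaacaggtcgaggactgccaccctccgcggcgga
Krt20: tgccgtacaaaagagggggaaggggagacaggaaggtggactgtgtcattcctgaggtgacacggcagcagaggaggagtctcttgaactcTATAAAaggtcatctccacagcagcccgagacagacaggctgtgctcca
Krt23: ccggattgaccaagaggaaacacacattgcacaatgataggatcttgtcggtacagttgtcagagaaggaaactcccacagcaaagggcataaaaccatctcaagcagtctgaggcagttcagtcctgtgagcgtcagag
In windows from 250 bases before to 50 bases after the start, searched on both strands, TATAAA occurred for Krt8 and Krt20 and was not found for Krt7, Krt18 and Krt23. In Krt20 it began 29 bases before the annotated start. In Krt8 it began 1 base before the annotated start and overlapped a match on the other strand. Of 32817 promoter windows of the same length, 13.6% held it. The GC box letters GGGCGG were found 4 times for Krt7 and for none of the other 4 matched keratins (35.6% of all windows). The AP-1 letters TGANTCA were found for none of the 5 (7.81% of all windows). A match is a stretch of letters and not a shown binding site. Sequences were matched for 5 of the 7 keratins, and those of Krt19 and Krt80 were not used here.

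The hepatocyte pair had higher levels in every tumour, by nearly the same amount in each. Krt8, the type II partner, had log2 levels of 10.70 and 10.82 in the control livers. Tumours 1, 2 and 3 were at 12.39, 12.31 and 12.35. The tumour values lay within 0.08 of each other, and the lowest was 1.49 above the higher control. The group means were 10.76 ± 0.09 (SD, n = 2) and 12.35 ± 0.04 (SD, n = 3), a difference of 1.59 or 3.02-fold. Krt18, the type I partner, stood at 10.67 and 10.61 in the controls and 12.86, 12.76 and 13.03 in the tumours. The lowest tumour was 2.09 above the higher control, and the tumours ranged over 0.26. The means were 10.64 ± 0.04 (SD, n = 2) and 12.88 ± 0.13 (SD, n = 3), a difference of 2.24 or 4.72-fold.

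The log2 differences of the pair were unequal. The difference of Krt18 from its control mean exceeded that of Krt8 by 0.58, 0.57 and 0.79 in tumours 1, 2 and 3, where the same measure differed by 0.18 between the controls. The highest value of any probe set was 13.98, so the Krt18 levels lie near the top of the scale, where array signals are compressed. Leaving out single arrays, 1 at a time over all 5, kept the difference between 1.53 and 1.66 for Krt8 and between 2.17 and 2.30 for Krt18. RefSeq lists a pseudogene, Krt8-ps, and whether its transcripts reach the Krt8 probes was not tested. These are bulk tissues, in which more cells of a type and more RNA per cell cannot be told apart.

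The 2 biliary keratins behaved differently from each other. Krt19, the type I keratin of bile ducts, stood at 4.87 and 5.05 in the controls and 6.35, 5.80 and 7.78 in the tumours. All tumours lay above both controls, the lowest by 0.75, and tumour 3 lay 1.43 above the next tumour. The means were 4.96 ± 0.13 (SD, n = 2) and 6.64 ± 1.02 (SD, n = 3), a difference of 1.69, or 1.12 without tumour 3. Krt7, the type II keratin of bile ducts, stood at 5.31 and 5.05 in the controls and 5.86, 5.75 and 5.36 in the tumours. Its lowest tumour was only 0.06 above the higher control, less than the 0.26 between the controls. The means were 5.18 ± 0.18 (SD, n = 2) and 5.66 ± 0.26 (SD, n = 3), a difference of 0.48. In tumour 3, Krt19 was 7.08-fold and Krt7 1.14-fold over the control mean.

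Krt20 and Krt23, type I keratins and neighbours on chromosome 11, were the most uneven of the 7 among the tumours. Krt20 stood at 3.90 and 4.04 in the controls and 4.29, 5.61 and 8.51 in the tumours. Tumour 3 was 23.2-fold, tumour 2 was 3.12-fold and tumour 1 was 1.25-fold over the control mean. Both controls and tumour 1 lay under the lower quartile of all probe sets of their arrays (4.29 to 4.35 by array), where a value was not shown to be above background. The difference of means was 2.17, with tumours at 6.14 ± 2.16 (SD, n = 3) and controls at 3.97 ± 0.10 (SD, n = 2). It was 1.80 with values under that quartile raised to it, an alternative added after the data were seen, and 0.98 without tumour 3, 3.09 without tumour 1.

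Krt23 was high in tumour 3 alone. It stood at 4.79 and 4.84 in the controls and 5.06, 4.26 and 9.60 in the tumours. Tumour 3 was 27.6-fold over the control mean, tumour 1 was 1.19-fold, and tumour 2 was below both controls. The tumour 2 value lay under the lower quartile of its array, 4.29, so it was not shown to be above background and no fold is given for it. The means were 4.81 ± 0.03 (SD, n = 2) and 6.31 ± 2.88 (SD, n = 3), so the difference of 1.49 is smaller than the spread among the tumours. It was -0.15 without tumour 3, and 2.12 and 2.52 without tumour 1 and tumour 2. The range of Krt23 among the tumours, 5.34, reached down to that value, and was matched or exceeded by 6 of the 19938 genes, itself included. For Krt20, with a range of 4.22, this number was 28, and for Krt19, with 1.98, it was 322. The median range over all genes was 0.33.

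Krt80, a type II keratin, differed least. It stood at 5.46 and 5.56 in the controls and 5.72, 5.74 and 5.96 in the tumours. The means were 5.51 ± 0.07 (SD, n = 2) and 5.81 ± 0.13 (SD, n = 3), a difference of 0.29 or 1.23-fold. Its lowest tumour was 0.15 above the higher control, beside 0.10 between the controls.

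**Figure D1:**
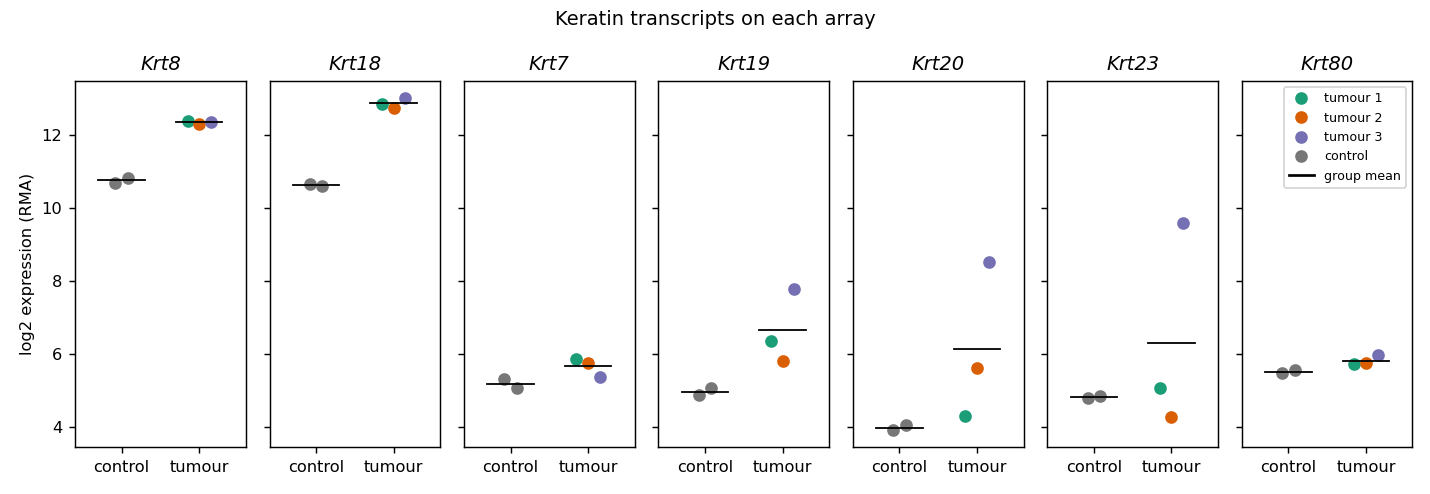
Log2 RMA expression (vertical axis) of the 7 keratins on each array. Points are single arrays, grey for the 2 control livers and coloured for the 3 tumours, and bars are group means. The tumour points of Krt8 and Krt18 sit close together above the controls, while Krt19, Krt20 and Krt23 are highest in tumour 3, at 7.78, 8.51 and 9.60.

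Across the 7 genes, all tumours lay above both controls for 6, the exception being Krt23. This held for 21.1% of all genes, and since these values chose the 7 genes nothing is read from the count. Tumour 3 was the highest tumour for 5 of the 7, the exceptions being Krt7 and Krt8. It lay more than 1 log2 unit above both other tumours for 3, Krt19, Krt20 and Krt23, against 1.44% of all genes. The differences of the 7 had a median of 1.59, beside -0.02 for all genes. Because the same values chose the 7 genes, nothing is read from these comparisons with all genes either. The order of differences, from Krt18 (2.24) and Krt20 (2.17) through Krt19 (1.69), Krt8 (1.59) and Krt23 (1.49) to Krt7 (0.48) and Krt80 (0.29), does not hold within the spread of the tumours for Krt19, Krt20 and Krt23, whose SDs were 1.02, 2.16 and 2.88.

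The other 45 measured keratins, which belong mainly to stratified epithelium, hair and glands, had differences under those of Krt8, Krt18, Krt19, Krt20 and Krt23. Krt5 (0.79) lay above Krt7 and Krt80, and Krt16 and Krt71 (both 0.31) lay above Krt80. Tumour minus control differences were tested across all 19938 genes with limma, with adjustment over all of them and a threshold of 0.05, and 10.6% of genes passed, 5.6% risen and 4.96% fallen. Of the 45 other keratins, 0 passed, with 2 at an unadjusted p under 0.05. The count was 0 under every alternative run. Differences lay between -0.26 and 0.79, with 44 of the 45 within 0.5 of zero and a median of 0.04. All values of these genes lay between 2.85 and 7.09, and 10 had a control mean under the lower quartile of the arrays.

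Krt5, a basal cell keratin, had the largest difference among them and did not pass. It stood at 4.59 and 4.81 in the controls and 6.06, 5.11 and 5.29 in the tumours, a difference of 0.79 (SE 0.29, adjusted p = 0.164) in which tumour 1 was highest. Krt16, a keratin of stressed epidermis, differed by 0.31 (adjusted p = 0.173), Krt75 by -0.26 (0.339) and Krt40 by -0.23 (0.373).

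The keratins next to the 7 in gene order had other values. Krt12 and Krt39, which flank Krt20 and Krt23, differed by -0.14 and -0.18. In tumour 3 Krt12 stood at 5.98, against 6.17 and 5.96 in the controls. Krt39 stood at 3.89 in tumour 3, against 3.88 and 3.95 in the controls. Krt15 and Krt9, the nearest keratins to Krt19, differed by 0.05 and -0.05. Krt78, the next type II gene beside Krt8, differed by -0.09, and Krt87, beside Krt7, by 0.00. Krt39 and Krt9 lay under the lower quartile on every array. None of these 6 passed the test (adjusted p from 0.516 to 0.989).

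**Figure D2:**
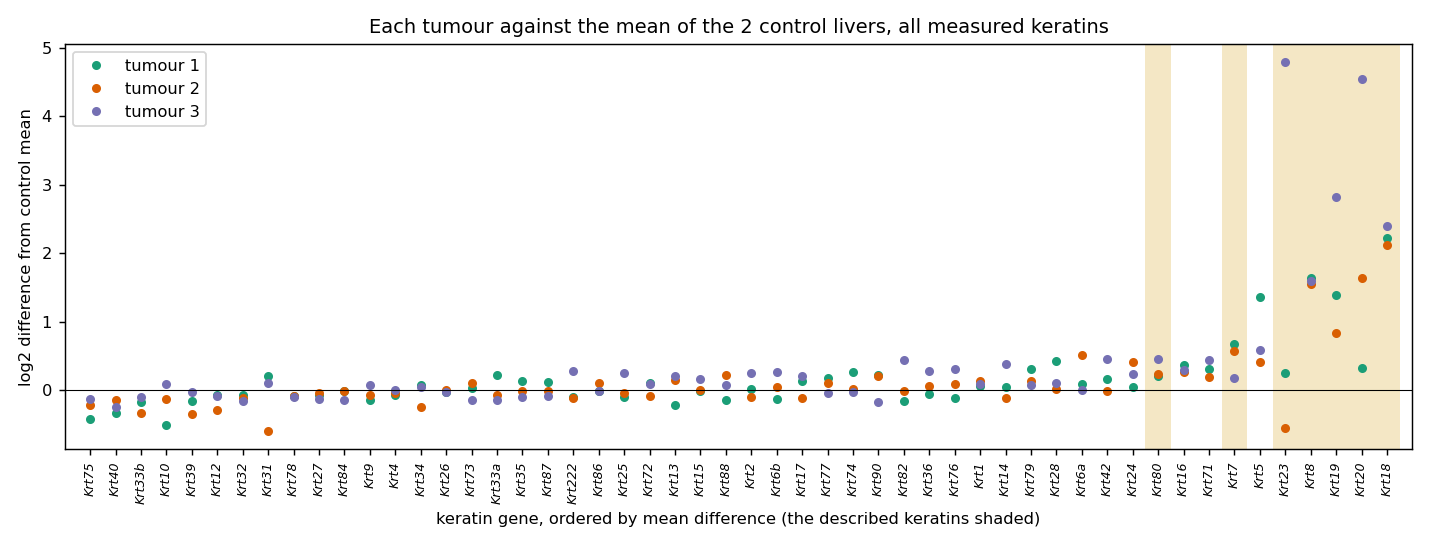
Log2 difference of each tumour from the mean of the 2 control livers (vertical axis) for all 52 measured keratins, ordered by their mean difference. Each point is 1 tumour, and the 7 described keratins are shaded; 44 of the 45 others have mean differences within 0.5 of zero.

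For the 5 keratins that ranged over at least 1 log2 unit, the genes with the most similar profile were found by the root mean square difference of log2 values over the 5 arrays, each gene centred on its own mean. Myo1c, a membrane-linked myosin, was closest to Krt8 (0.08), followed by the death receptor gene Tnfrsf10b (0.09). Myo1c stood at 7.80 and 7.87 in the controls and 9.39, 9.21 and 9.25 in the tumours. The netrin receptor gene Unc5b and the actin crosslinker gene Flna were closest to Krt18, both at 0.07. Flna stood at 6.57 and 6.47 in the controls and 8.71, 8.61 and 8.71 in the tumours.

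The keratins that were high in tumour 3 had other companions. Krt19 was followed most closely by Ubqln2, which encodes a proteasome shuttle (0.12), and by Siglece, an inhibitory lectin of myeloid cells (0.18). Krt20 was followed by Ccl8, a chemokine (0.29), and Cd3g, a subunit of the T cell receptor complex (0.39), both of which, like Krt20, lay under the lower quartile in both controls. Cd3g stood at 3.88 and 4.18 in the controls and 5.06, 5.61 and 8.06 in the tumours, the same order of arrays as Krt20 among the tumours. Krt23 was followed by Plagl1, an imprinted zinc finger factor (0.22), and Kcnk1, a potassium channel subunit (0.33). Plagl1 stood at 9.10 in tumour 3 and between 4.39 and 5.01 on the other 4 arrays. With 5 arrays such likeness is a description only.

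**Figure D3:**
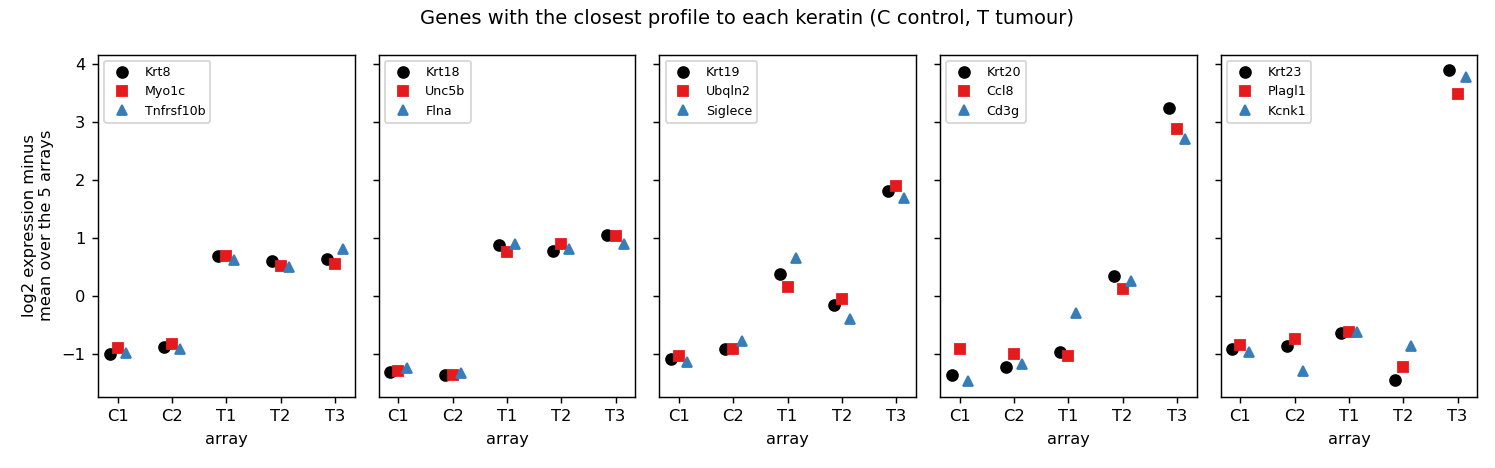
Log2 expression minus the gene's mean over the 5 arrays (vertical axis) on 2 control (C) and 3 tumour (T) arrays, for 5 keratins (black circles) and the 2 genes closest to each. The companions of Krt8 and Krt18 are level across the tumours, and those of Krt20 and Krt23 are high in T3.

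Filaments are held at desmosomes and linked to other cytoskeletal systems by plakins, and 3 of 14 such genes rose, with 0 fallen. The calls were 21.4% of the list, beside 10.6% of all genes. This list and those below were chosen with earlier results of these data known, so their shares are a description only. Dst, which encodes the linker dystonin, rose by 2.15 (SE 0.26, adjusted p = 0.00775), Plec, which encodes plectin, by 1.03 (SE 0.16, adjusted p = 0.0163) and Eppk1, which encodes epiplakin, a keratin-binding linker, by 1.37 (SE 0.23, adjusted p = 0.0195). Plec stood at 7.35 and 7.33 in the controls and 8.15, 8.38 and 8.58 in the tumours. Periplakin (Ppl) differed by 1.19 and did not pass (adjusted p = 0.0615), and the desmosomal core gene Dsp by -0.07. The list had a median difference of 0.40, beside -0.02 for all genes. All 3 calls were lost without control 1 or control 2, and Plec also without tumour 2 (0.0512); without tumour 3 the list had 5 calls, Ppl (0.0148) and Jup (0.0382) added.

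Of 15 other intermediate filament genes, 2 rose and 0 fell, a share of 13.3% called, near the 10.6% of all genes. Vim, which encodes the mesenchymal filament protein vimentin, stood at 8.27 and 8.03 in the controls and 10.33, 9.79 and 10.08 in the tumours, and rose by 1.92 (SE 0.19, adjusted p = 0.0047). Lmna, which encodes the nuclear lamins A and C, rose by 0.93 (SE 0.13, adjusted p = 0.0112). The neuronal filament genes Prph (0.48, adjusted p = 0.147) and Nefl (0.26, 0.288) did not pass, and the list's median was 0.19. Both calls were lost without either control (0.068 to 0.127).

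Among 19 measured genes whose products bind, stabilise or modify keratins, 5 rose and 0 fell, or 26.3% called beside 10.6% of all genes. Sqstm1, which encodes the p62 protein found with keratins in Mallory-Denk bodies, stood at 11.23 and 11.04 in the controls and 12.19, 12.28 and 12.50 in the tumours, and rose by 1.19 (SE 0.15, adjusted p = 0.00903). Tgm2, which encodes a transglutaminase that crosslinks Krt8, rose by 2.15 (SE 0.21, adjusted p = 0.00455), from 8.55 and 8.51 to 10.94, 10.29 and 10.80. The 14-3-3 genes Ywhah and Ywhaz, of a family whose members bind phosphorylated Krt18, rose by 1.31 and 0.93 (adjusted p = 0.0044 and 0.0114). Mapkapk2, a stress kinase gene, rose by 0.92 (adjusted p = 0.0201). The other 14 did not pass, and the list's median was 0.11. Without control 1 or control 2 all 5 calls were lost, and Mapkapk2 was lost without tumour 2 (0.058). Hspb1, a small heat shock protein gene picked here after its values were seen, was 8.83 in tumour 3 and between 6.59 and 6.99 on the other arrays (adjusted p = 0.452, or 0.405 without tumour 3).

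Transcription factor genes of simple epithelium, known activators of the KRT18 gene and the splicing regulator genes Esrp1 and Esrp2 formed 1 list. In it 5 of 20 rose and 1 fell. This was 30.0% of the list, beside 10.6% of all genes, and this list too was chosen with earlier results of these data known. Jun, a subunit of AP-1, rose by 1.92 (SE 0.13, adjusted p = 0.00169), from 6.40 and 6.45 to 8.34, 8.46 and 8.23. Klf6 rose by 2.37 (SE 0.26, adjusted p = 0.00577), and Ets2, an Ets factor, rose by 2.08 (SE 0.26, adjusted p = 0.00921), with 10.09 in tumour 3. Sox4 (1.77, adjusted p = 0.04) and Gata6 (1.46, adjusted p = 0.0371) rose too, and Foxa1, a pioneer factor of hepatocytes, fell by 1.12 (SE 0.12, adjusted p = 0.00602). Genes central to other simple epithelia did not pass, among them Grhl2 (-0.08) and Klf5 (0.03), and the list's median was 0.09. Jun was the sole gene of the list still called without either control (0.0444 and 0.0472), and Sox4 and Gata6 were lost without tumour 2 (0.0994 and 0.0721). Elf3, an Ets factor of epithelium, was called without tumour 2 (0.00977) but not with all arrays (0.0677).

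**Figure D4:**
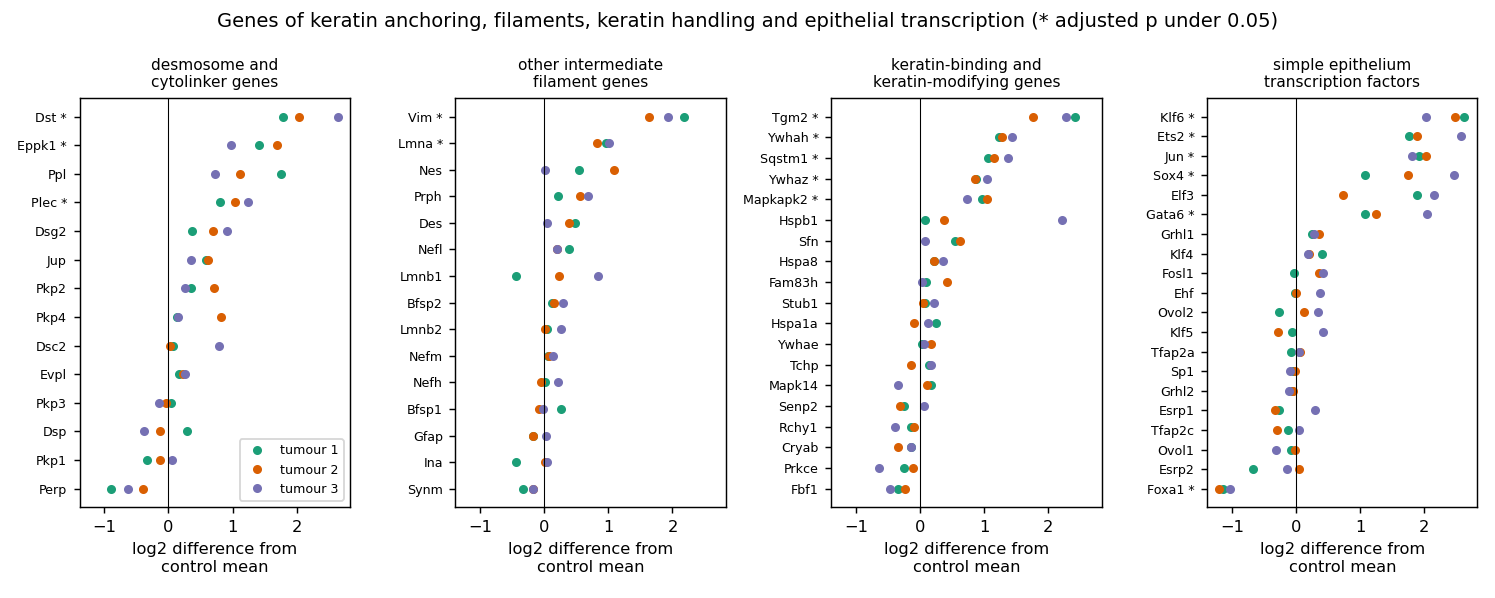
Log2 difference of each tumour from the control mean (horizontal axis) for 4 lists of genes around the keratins. Each point is 1 tumour and asterisks mark limma adjusted p under 0.05. They mark 3 of 14, 2 of 15, 5 of 19 and 6 of 20 genes, where 10.6% of all genes passed. The lists were chosen with earlier results of these data known.

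Since Krt7 and Krt19 also mark bile duct cells, other cholangiocyte markers were set beside them. Of 16 measured cholangiocyte markers with no keratin among them, 1 rose, 1 fell and 14 did not pass. This share of 12.5% called lies near the 10.6% of all genes. The list had 7 genes at an unadjusted p under 0.05 and a median difference of 0.33. Bicc1, an RNA-binding protein gene, rose by 3.08 (adjusted p = 0.0128), and Slc10a2, the ileal and biliary bile acid importer, fell (adjusted p = 0.00224). Slc10a2 stood at 6.59 and 6.28 in the controls and lay under the lower quartile in all 3 tumours, so the size of its fall is not given. Among the uncalled markers, Cldn4 stood at 5.70 and 5.91 in the controls and 6.15, 7.53 and 6.75 in the tumours (adjusted p = 0.176). The differences were 1.07 for Prom1 (0.349), 0.44 for Muc1 (0.0896) and -0.61 for Slc4a2 (0.0641). They were 0.08 for Sox9 (adjusted p = 0.772), 0.53 for Epcam (0.206), 0.22 for Sctr (0.481), 0.19 for Pkhd1 (0.712) and -0.39 for Cftr (0.244). Cftr lay under the lower quartile in both groups. Sox9 stood at 5.93 and 5.98 in the controls and 6.06, 6.09 and 5.94 in the tumours, where tumour 3 had the highest Krt19 value of 7.78. The median level of the list was 5.33 and 5.06 in the controls and 5.93, 5.36 and 6.03 in the tumours. Single markers were high in tumour 3, as Krt19 was: Cd24a stood at 8.58 there and 6.07 and 4.72 in tumours 1 and 2, Sstr2 at 8.65 against 5.27 and 5.24, and Cldn7 at 8.09 against 6.31 and 6.74, and none of these passed the test with all arrays (adjusted p = 0.162, 0.465 and 0.0827). Without tumour 3 their adjusted p was 0.0598, 0.168 and 0.0136, and Cldn7 also passed without tumour 1 (0.0467). Cd24a lay under the lower quartile in both controls. Tumour 3 was the highest tumour for 6 of the 16 markers, and others were lowest there. Aqp1 stood at 6.70 in tumour 3 and 9.04 and 7.70 in tumours 1 and 2, and Prom1 at 4.33 against 6.53 and 5.04. The list's median difference from the control mean was 0.34, 0.28 and 0.24 in tumours 1, 2 and 3. Bicc1 lost its call without either control (0.124 and 0.153) and Slc10a2 retained it (0.0489 and 0.0459). The list had 4 calls without tumour 1, with Aqp1 (0.0471) fallen besides Cldn7, and 4 without tumour 3, with Slc4a2 (0.0225) fallen besides Cldn7.

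Hepatocyte markers were set beside Krt8 and Krt18. Of 20, 0 rose and 4 fell, with 7 at an unadjusted p under 0.05 and a median difference of -0.22. Among all genes 10.6% were called, 5.6% risen and 4.96% fallen. The 4 fallen genes were Asgr1 (-1.22) and Asgr2 (-1.48), subunits of the asialoglycoprotein receptor, Apoh (-1.22) and Ttr (-0.71), with adjusted p from 0.0383 to 0.0476. The largest differences of the list did not pass, Pck1 with -2.41 (adjusted p = 0.191, or 0.00152 without tumour 1) and G6pc with -1.78 (0.0862), both genes of glucose production. Alb differed by -0.12 (adjusted p = 0.744) and Hnf4a, a master regulator of hepatocytes, by -0.20 (0.463). Alb stood at 12.65 and 12.85 in the controls, and the list's median levels there were 12.28 and 12.27. Levels this high lie towards the top of the scale, where array signals are compressed. The 4 calls were lost without either control and without tumour 2.

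Markers of other cell types that make or could bring these keratins stood as follows, and their part in the keratin values was not tested. The share of all genes that passed was 10.6%. Of 8 mesothelial markers, cells that make Krt8, Krt18, Krt7 and Krt19, 0 passed and 0 had an unadjusted p under 0.05 (median -0.09). Of 12 markers of intestinal epithelium, the usual site of Krt20, 0 rose and Lgr5 alone fell (-1.70, adjusted p = 0.0102); this call was lost without either control. Cdh17 rose without tumour 2 (0.0132), and without tumour 3 Tff3 rose (0.0313) and Lgals4 fell (0.0444). In the control livers Lgr5 stood at 6.78 and 6.24, Fabp2 at 9.44 and 8.14 and Cdhr5 at 9.50 and 9.43. These genes therefore do not mark intestinal epithelium alone here. The intestinal factor gene Cdx2 stood at 5.03 and 5.05 in the controls and between 4.93 and 5.19 in the tumours. Cdh17 stood at 7.43 in tumour 3 and 6.54 in tumour 1, and at 3.48 in tumour 2, where Krt20 was 5.61 (adjusted p = 0.282 with all arrays), and it lay under the lower quartile in both controls and tumour 2. Of 9 markers of stratified epithelium 0 passed (median -0.08, and 0 at an unadjusted p under 0.05).

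Non-epithelial markers differed among the tumours too, and their part in the keratin values was likewise not tested. Over all genes 10.6% passed, 5.6% risen and 4.96% fallen. Of 20 macrophage markers 12 rose and 0 fell (median 2.18; per-tumour medians 2.39, 1.66 and 2.59), all but C1qc lost without control 2 and all lost without control 1. For 15 of the 20 macrophage markers all tumours lay above both controls, beside 21.1% of all genes. Among those that did not pass, Vsig4 stood at 9.84, 7.34 and 4.55 in tumours 1, 2 and 3, beside 7.07 and 7.82 in the controls. Clec4f stood at 9.28, 6.37 and 5.03, beside 7.51 and 7.87. Cd5l and Timd4 were likewise highest in tumour 1 and lowest in tumour 3. Of 11 lymphocyte markers 0 passed, with 4 at an unadjusted p under 0.05. Their medians were 0.29, 0.19 and 0.64 in tumours 1, 2 and 3. Cd8a stood at 7.68 in tumour 3 and at 6.42 and 6.23 in the other tumours. Of 15 stellate cell and fibroblast markers 1 rose, Acta2 by 2.44 (adjusted p = 0.0102), and of 13 endothelial markers 1 rose, Plvap by 1.58 (0.04), and both were lost without either control. Without tumour 3 there were 3 calls each for stellate cells and fibroblasts, endothelium and lymphocytes, all risen, the last being Cd3g (0.0174), Cd8a (0.0189) and Nkg7 (0.0248). Without tumour 1, 2 stellate cell and fibroblast markers rose, and 2 endothelial markers fell, Stab2 (0.0246) and Oit3 (0.0224). Plvap was also lost without tumour 1 (0.0806), without tumour 2 (0.0723) and with the arrays normalised again or shifted to a common median. The endothelial medians were 0.74, 0.17 and -0.44 in tumours 1, 2 and 3, lowest where Krt19, Krt20 and Krt23 were highest. The stellate cell and fibroblast medians were 0.69, 0.47 and -0.06. In tumour 3, Acta2 stood at 7.67, beside 6.04 and 5.63 in the controls. Dcn stood at 7.22 there, beside 10.07 and 10.14, and Reln at 4.93, beside 8.47 and 8.30. Neither Dcn nor Reln passed the test with all arrays.

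**Figure D5:**
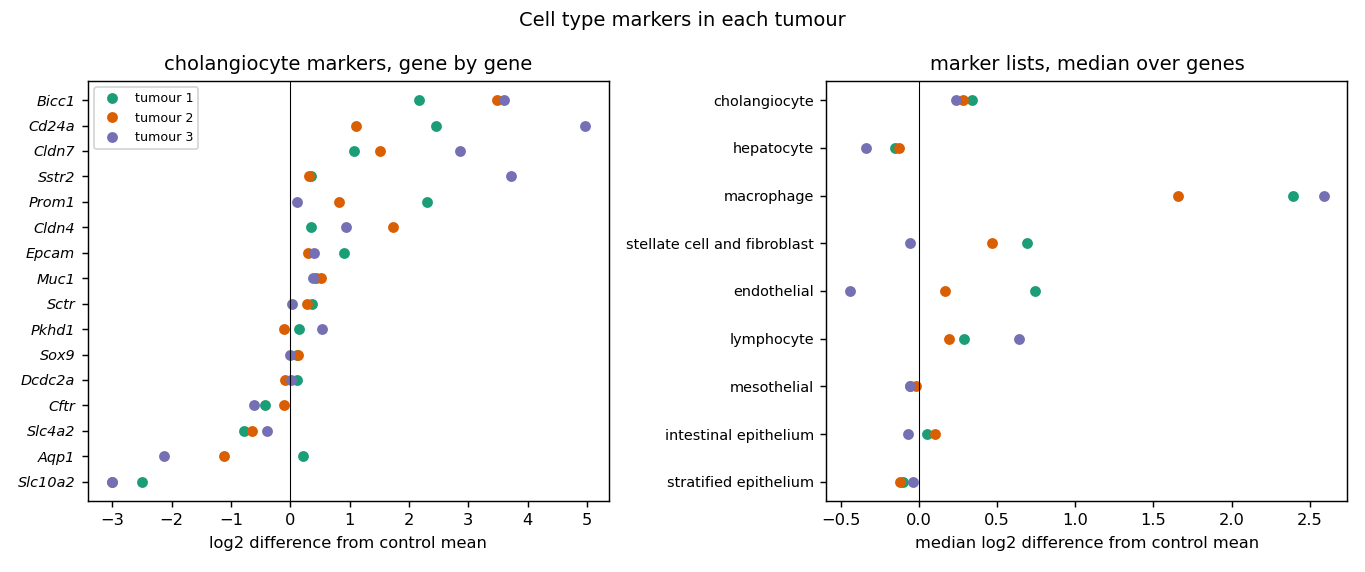
Left, log2 difference of each tumour from the control mean for the 16 cholangiocyte markers; right, the median of that difference over each marker list. Each point is 1 tumour; the macrophage list has medians of 2.39, 1.66 and 2.59, and the cholangiocyte medians lie between 0.24 and 0.34.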

How the data were processed

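The authors' deposited table held 1 log2 value per probe set and array. Per the submitters' processing notes, GCOS and RMA were used; versions and the genome build were not given in the sources used here. RMA compresses differences at low and at very high levels. Columns of other samples numbered 0.

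Of 28853 probe sets, 21789 had 1 symbol in the platform's annotation, 1621 had several and 5443 had none. Only the first kind was used. A gene with several probe sets was represented by the brightest on average, which left 19938 genes, 19856 of them with an identifier found in a gene table of GRCm38.p6 that gave the gene order. Tumour minus control was estimated by limma 3.58.1 (lmFit, eBayes; R 4.3.3) from all 5 arrays without covariates, with 3 residual and 2.98 prior degrees of freedom, two-sided p-values and Benjamini-Hochberg adjustment over all genes. The fit was tested on simulated data. P-values set each difference against the spread between these arrays within their groups, moderated by the spread over all genes. The fit takes the spread to be the same in both groups.

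The keratins and the 13 gene lists were chosen with earlier results of these data known. Of the other keratins and of each list, the 4 genes with the smallest p were open to naming, and further genes named were picked after their values were seen. The alternatives were a repeated quantile normalisation, a common array median, means over probe sets, removal of the dimmest 40% of genes, trend and robust settings, array weights, all probe sets as features, a threshold of 0.01, a replicate block and each array left out. Python 3.11.15, pandas 2.3.3 and matplotlib 3.10.9 were used.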

Additional observations from a re-analysis of the deposited data

How the results depend on the processing

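The differences of the 7 keratins kept their direction with the normalisation repeated, with arrays shifted to a common median, with means over probe sets and with low values raised to the lower quartile. Krt23 reversed to -0.15 with the replicate number as a block and without tumour 3, and ranged from -0.15 to 2.52 over the arrays left out, beside 1.53 to 1.66 for Krt8. The count of called genes was 3252 with array weights and 505 at the 0.01 threshold, and ranged from 108 to 2719 with an array left out (129 without control 1, 108 without control 2, 1266 without tumour 2). At the 0.01 threshold the calls were 1 for the desmosome and cytolinker list, 1 for other intermediate filaments, 3 for keratin-binding genes, 1 for cholangiocyte and 0 for hepatocyte markers. Array weights gave 5 desmosome and cytolinker calls and 5 cholangiocyte calls, the replicate block gave 5 cholangiocyte calls, removal of the dimmest genes gave 1, and the repeated normalisation gave 2 hepatocyte calls. Over the arrays left out, the counts ranged from 0 to 5 for desmosome and cytolinker genes, 0 to 2 for other filaments, 0 to 5 for keratin-binding genes, 1 to 6 for transcription factors, 1 to 4 for cholangiocyte and 0 to 4 for hepatocyte markers. With a control left out, the lone control left is taken to have the tumours' spread. The replicate numbers are not stated to pair the arrays, deviations of same-numbered arrays correlated at 0.004 and -0.013, and the block gave 2376 called genes. Tumour 3 is the sole array of its number, so the block takes it out of the comparison, as does the setting without it. Apart from the smaller number of arrays, the cause of the other changes was not tested.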
